A study of Rattus norvegicus with 9 samples.

Results

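Cells that met a marker rule for conventional dendritic cells (cDC) made up 236 of the 114232 cells kept from 8 single-cell libraries of rat tibial osteotomy tissue. Their share was 0.207% (95% exact Clopper-Pearson interval 0.181% to 0.235%), and cDC below stands for cells that met this rule. The cells were chosen by their measured UMIs of marker genes, where a UMI (unique molecular identifier) tags a single captured RNA molecule. A cell needed at least 1 UMI of Flt3, at least 1 UMI in the sum of Xcr1, Clec9a and Clec10a, and at least 5 UMIs of Cd74, with no UMI of the plasmacytoid marker Siglech and at most 1 UMI of the B cell gene Cd79a. Cells under 200 genes or over 20% mitochondrial UMIs had been dropped. Within the cDC, 42 cells held Xcr1 or Clec9a but no Clec10a (the cDC1 gate), 165 held Clec10a but neither of the others (the cDC2 gate), and 29 held both marker sets.

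All libraries came from male Sprague-Dawley rats aged 6 to 8 weeks that carried a 3 mm circular osteotomy of the proximal tibia, with a 4 mm skin wound on the foot of that leg. The TO group had the osteotomy without further treatment, and the TOE group also received radial extracorporeal shock waves (rESWT) over the cut bone, on day 2 and again on day 4 after surgery. The day 2 TOE libraries were taken before the day 4 session, and the day 4 TOE libraries after both. Library names give the day and the hours since the session, or since the same moment in untreated rats. TO libraries were taken on day 2 at 0 h (2d 0h) and 4 h (2d 4h) and on day 4 at 4 h (4d 4h) and 24 h (4d 24h), and TOE libraries on both days at 4 h and 24 h. Each condition was 1 library, so the 3 pairs matched in time (4 h on each day, and 24 h on day 4) compare single libraries, and rat, library and treatment cannot be told apart within a pair.

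Dendritic cells take up antigen in tissue and present it to T cells on MHC molecules. Conventional dendritic cells depend on the cytokine receptor Flt3 and express the transcription factor Zbtb46. The cDC1 subset relies on Batf3 and Irf8, carries the chemokine receptor Xcr1 and the dead-cell receptor Clec9a, and is known for presenting captured antigen on MHC class I to CD8 T cells. The cDC2 subset carries Sirpa and lectins such as Clec10a and is known for presenting on MHC class II to CD4 T cells. Plasmacytoid dendritic cells (pDC) depend on Tcf4 and are known for interferon production, while monocytes and macrophages share many surface receptors with cDC2. Shock waves are pressure pulses applied through the skin.

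The 8 libraries held 12329 to 16945 kept cells each, with 95954800 to 144146202 UMIs per library. The median depth was 4572 to 5790 UMIs over all kept cells of a library and 12672 to 20383 UMIs over its cDC. A doublet score over 0.25 was given to 4 cDC (1.69%) against 3.28% of all kept cells. The barcode of 10 cDC (4.24%) was also found on a kept cell of another library, against 2.71% of all kept cells, and no barcode was a cDC in more than 1 library. Levels below are CPM, the UMIs of a gene scaled by all UMIs of the cells in a gate. CPM of 3' tags is not scaled by gene length, so values are compared between cells for a gene and not between genes.

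The genes of the rule describe the members and carry no test. Flt3 ranged from 1 to 27 UMIs per cDC with a median of 2, and 85 of the 236 cells met the rule with a single Flt3 UMI. Cd74, the invariant chain of MHC class II, ranged from 5 to 712 UMIs with a median of 111. Clec10a was found in 194 cells (82.2%), Clec9a in 48 (20.3%) and Xcr1 in 40 (16.9%). A Cd79a UMI was found in 38.1% of the cDC, and in 35.2% of the cells of the monocyte gate, which had the same limit on Cd79a.

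The 9 cDC with 5 to 9 Cd74 UMIs had 91.7 CPM of RT1-Da and no UMI of Batf3, whereas the 227 with 10 or more had 4360 CPM of RT1-Da and 68.6 CPM of Batf3. Just outside, 45 cells met all other limits but had 1 to 4 Cd74 UMIs, and they had 19.1 CPM of RT1-Da and 969 CPM of Elane, a granule protease of neutrophil precursors. The 9 cDC nearest the Cd74 limit had 803 CPM of Elane, of which 174 UMIs lay in 1 cell, against 16.1 CPM in the 227. The 292 cells that lacked all of Xcr1, Clec9a and Clec10a but met the other limits had 37.8 CPM of Zbtb46 and 57.3 CPM of Batf3. Those 2 values were near those of the members, but other genes differed. RT1-Da stood at 1350 CPM in the 292 cells and 4130 CPM in the members, Cst3 at 1240 and 2860 CPM and Elane at 158 and 57.2 CPM. The 660 cells left out for want of a Flt3 UMI had 11.5 CPM of Zbtb46, 15600 CPM of the myeloid lysozyme Lyz2 and 533 CPM of the macrophage gene C1qa. The 85 cDC with a single Flt3 UMI had 18.9 CPM of Zbtb46, 16 CPM of Batf3, 12300 CPM of Lyz2 and 265 CPM of C1qa. In the 151 with 2 or more these stood at 50.3, 89.2, 7580 and 15 CPM, so the single-UMI members lay nearer the cells left out. On both sides of the Cd74 limit Batf3 was at 0 and Zbtb46 was low, at 4.59 CPM in the 9 members and 4.96 CPM in the 45 cells outside.

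The share of cDC did not separate the TOE from the TO libraries at any matched time beyond counting error. At 2d 4h, 32 of 15318 TO cells (0.209%) and 30 of 16945 TOE cells (0.177%) were cDC, a TOE over TO ratio of 0.847 (exact conditional 95% interval 0.497 to 1.44). At 4d 4h the counts were 47 of 12733 (0.369%) and 49 of 13857 (0.354%), a ratio of 0.958 (0.629 to 1.46). At 4d 24h they were 11 of 14104 (0.078%) and 7 of 12329 (0.0568%), a ratio of 0.728 (0.239 to 2.06). All 3 ratios were below 1, with a geometric mean of 0.839 (two-sided exact sign-flip test over the 3 pairs, p = 0.25, the smallest p that 3 pairs allow). Intervals cover counting error only. At the same times the pDC share had TOE over TO ratios of 0.904 (0.625 to 1.31), 0.656 (0.437 to 0.978) and 0.458 (0.258 to 0.783). The monocyte gate had 0.824 (0.75 to 0.905), 2.08 (1.89 to 2.29) and 0.579 (0.495 to 0.675). The C1q macrophage gate had 0.669 (0.504 to 0.884), 1.06 (0.832 to 1.35) and 0.123 (0.0668 to 0.209). With cells thinned to 3000 UMIs, which left out 26334 shallower cells and kept 56 cDC, the cDC ratio was 3.05 at 2d 4h (0.804 to 17, from 11 TOE and 3 TO cDC). The one at 4d 4h was then 1.01 (0.441 to 2.34), and that of the 4d 24h pair 2.21 (0.316 to 24.4, from 4 and 2 cDC). Over cells outside the B lineage the ratio at 2d 4h was 1.27 (0.748 to 2.16). All 3 thinned ratios thus lay above 1, with intervals that include 1. Thinning changes both the depth and the cells kept, and their parts cannot be told apart here.

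**Figure D1:**
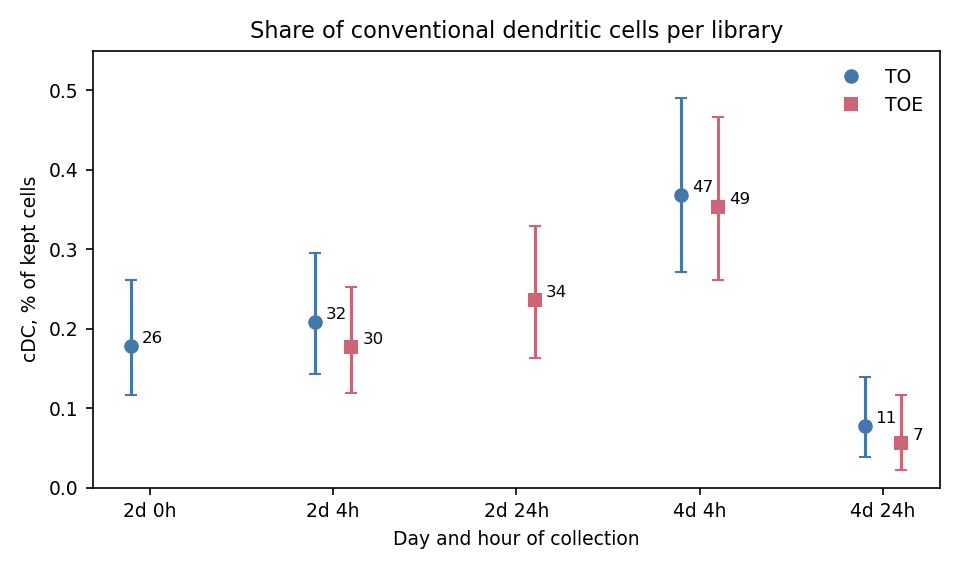
Share of kept cells that were cDC (y axis, percent) in each library by day and hour of collection (x axis), with TO as circles and TOE as squares, exact 95% intervals as bars and the number of cDC printed beside each point. The TO and TOE intervals overlap at every matched time, and the 4d 24h libraries (0.078% and 0.0568%) lie below the 4d 4h libraries (0.369% and 0.354%).

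In both arms the share at 4d 24h was lower than at 4d 4h, with a ratio of 0.211 (0.0988 to 0.413) in TO and 0.161 (0.0614 to 0.356) in TOE. After thinning the TOE ratio was 0.339 (0.0814 to 1.08), with an interval that includes 1. In the TOE libraries the other myeloid gates also held smaller shares at 4d 24h, with ratios of 0.198 (0.173 to 0.227) for the monocyte gate, 0.111 (0.0606 to 0.189) for the C1q macrophage gate and 0.5 (0.279 to 0.863) for the pDC gate. In the TO libraries those ratios were 0.711 (0.631 to 0.802), 0.958 (0.749 to 1.22) and 0.717 (0.484 to 1.06), so there the cDC had the lowest ratio of the 4 gates. From 2d 4h to 4d 4h the share was higher by a ratio of 1.77 (1.1 to 2.86) in TO and 2 (1.24 to 3.26) in TOE. When members with a Cd79a UMI or more than 1 UMI of C1qa and C1qb together were left out, these ratios were 1.46 (0.814 to 2.66) and 1.67 (0.93 to 3.03). After thinning they were 4.44 (1.22 to 24.3) and 1.48 (0.622 to 3.59), and over cells outside the B lineage they were 1.94 (1.21 to 3.14) and 1.49 (0.927 to 2.43). From 2d 4h to 2d 24h the TOE ratio was 1.33 (0.79 to 2.25), against 0.666 (0.202 to 1.96) after thinning and 0.8 (0.386 to 1.61) with the same members left out for Cd79a or C1q UMIs. Each of these is 1 library against another, with no replicate check.

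Within the cDC, the cDC1 gate held 20.3% of the 207 cells inside a single gate. It held 29.2% at TO 2d 0h, 32.3% at TO 2d 4h, 23.7% at TO 4d 4h and 11.1% at TO 4d 24h. In TOE it held 28.6% at 2d 4h, 9.68% at 2d 24h, 13% at 4d 4h and 0 of 7 cells at 4d 24h, which allows a share of up to 42.9% by a limit of 3 counts and up to 41% by the exact 95% interval. The TOE over TO ratio was 0.886 at 2d 4h (0.265 to 2.69), and that of 4d 4h was 0.551 (0.161 to 1.73), and neither interval excludes 1. After thinning these ratios were 0.429 (0.00546 to 33.6) and 0.171 (0.00362 to 1.53). With members left out for Cd79a or C1q UMIs they were 0.898 (0.193 to 3.53) and 0.205 (0.0212 to 1.03). Counting also the cells with both marker sets, Xcr1 or Clec9a was found in 34.4% of cDC at TO 2d 4h, 50% at TOE 2d 4h, 38.3% at TO 4d 4h and 18.4% at TOE 4d 4h.

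Of the cDC markers that the rule did not use, Zbtb46 was higher in the pooled cDC than in the other gates but was found in a minority of the cells. Zbtb46, the transcription factor that marks the cDC lineage, stood at 20.2, 35.9, 55.9 and 31.9 CPM in the TO libraries of 2d 0h, of 2d 4h, of 4d 4h and of 4d 24h and at 72.9, 29.9, 36.4 and 9.71 CPM in the TOE libraries of 2d 4h, of 2d 24h, of 4d 4h and of 4d 24h. It was lowest in the library with 7 cDC. Pooled over libraries it was 39.9 CPM in the cDC against 5.06 in the pDC gate, 2.27 in the monocyte gate and 5.73 in the C1q macrophage gate. A Zbtb46 UMI was found in 36.4% of cDC and in 4.35%, 2.82% and 3.73% of those gates, so most cDC showed none at this depth. In the cDC2 gate 29.7% of cells had a Zbtb46 UMI, 26.1% one of the transcription factor Irf4 and 80.6% one of the growth factor receptor Csf1r. In the cDC1 gate these were 52.4%, 16.7% and 16.7%. Cst3, a secreted protease inhibitor abundant in cDC, ranged from 1110 to 4920 CPM over the libraries, and Itgax, the CD11c integrin chain, from 27.9 to 79.8 CPM. Ciita, the master activator of class II genes, ranged from 31.9 to 169 CPM and was lowest at TO 4d 24h. In that library 1 of 11 cDC held 78688 of the 250551 cDC UMIs.

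Other cell types were present as RNA in the gate at differing levels. The summed level of 12 neutrophil genes was 5390 CPM in the cDC (1130 to 12000 over libraries) against 36200 CPM over all kept cells. That of 10 monocyte genes was 10200 CPM (3100 to 20600), above the 7890 CPM of all kept cells and below the 28200 CPM of the monocyte gate. The 11 measured of 12 listed B lineage genes summed to 273 CPM (205 to 447) against 6040 CPM over all cells. The 12 macrophage genes summed to 1150 CPM (196 to 1910) against 22600 CPM in the C1q macrophage gate. Levels within that list differed. The resident macrophage genes Cd163 and Cd5l stood at 3.83 and 0.478 CPM in the cDC, whereas Apoe and Mrc1 averaged 952 and 108 CPM in the cDC2 gate over 5 libraries. C1qa was found in 25 of the 236 cDC, and 28% of its UMIs lay in 1 cell.

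**Figure D2:**
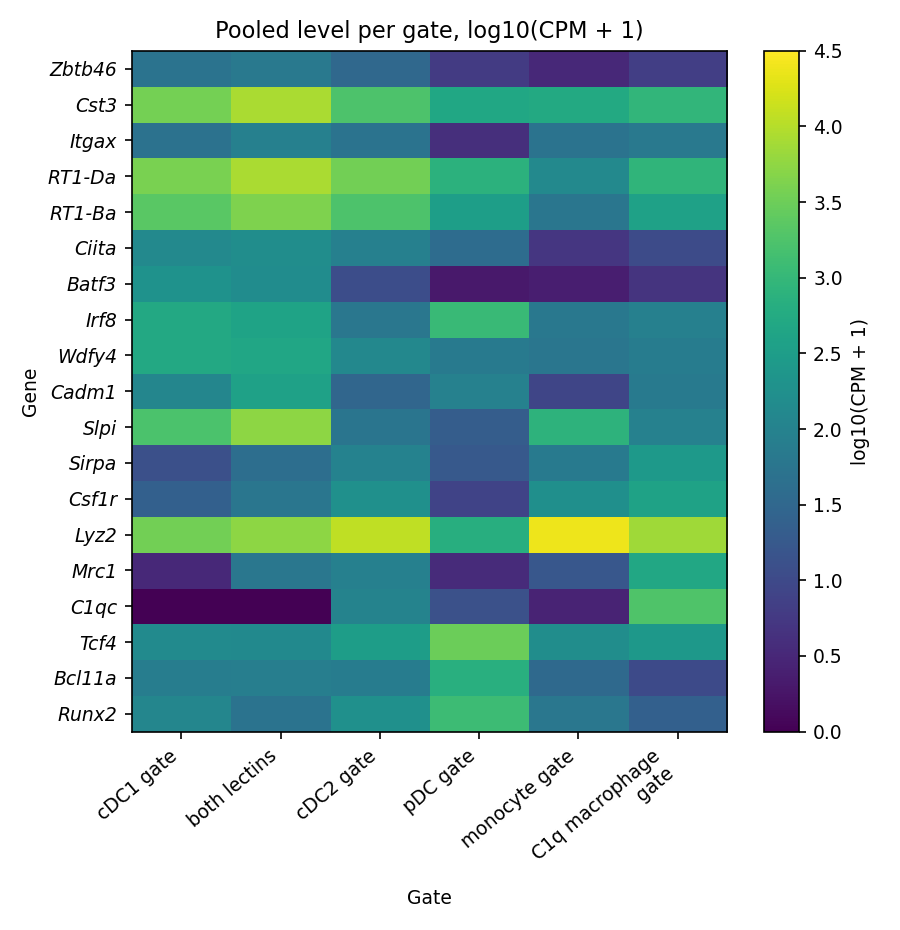
Pooled level of 19 genes (rows) in 6 gates (columns, where "both lectins" are cDC with both marker sets), as log10(CPM + 1) on a colour scale. Zbtb46 and the class II genes RT1-Da and RT1-Ba are highest in the 3 cDC columns, Batf3 stands out in the cDC1 gate (198 CPM) and in cells with both marker sets (153 CPM), and Tcf4 and Runx2 in the pDC gate.

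Summed over 15 listed class II genes, Cd74 included, the cDC had 20400 CPM (14300 to 24500 over the libraries), against 7160 CPM in the C1q macrophage gate, 4510 in the pDC gate and 2160 in the monocyte gate. The rule used Cd74, so these sums describe the members and were not tested. RT1-Da, the alpha chain of the rat class II D molecule, stood at 5370, 2360, 3590 and 4900 CPM in the TO libraries of 2d 0h, of 2d 4h, of 4d 4h and of 4d 24h and at 4320, 6320, 3090 and 4710 CPM in the TOE libraries of 2d 4h, of 2d 24h, of 4d 4h and of 4d 24h. RT1-Ba, the alpha chain of the B molecule, was steadier at 1820 to 2620 CPM. RT1-Bb, the beta chain that pairs with it, varied most of the 4 chains: it stood at 235, 61.9, 71.9 and 116 CPM in the TO libraries and at 55.3, 151, 563 and 126 CPM in the TOE libraries in the same order. RT1 genes are a family of close copies, so the assignment of UMIs to a single RT1 gene is uncertain.

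**Figure D3:**
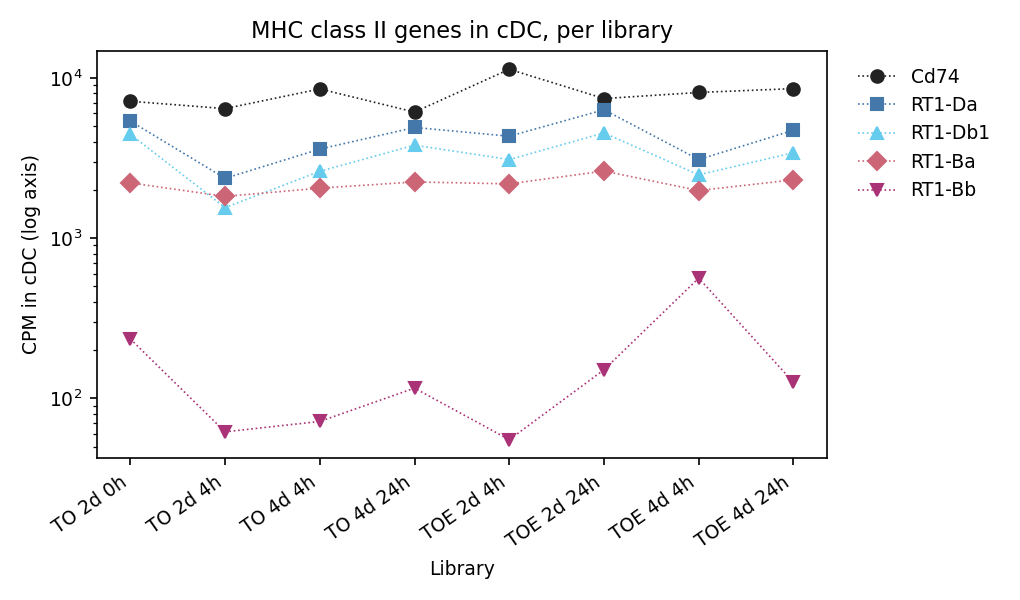
Level in the cDC of 5 MHC class II genes (y axis, CPM on a log axis) in each of the 8 libraries (x axis), with dotted lines joining the points of a gene only to guide the eye. RT1-Ba stays between 1820 and 2620 CPM, while RT1-Bb runs from 55.3 CPM at TOE 2d 4h to 563 CPM at TOE 4d 4h.

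The promoters of these 4 chains are shown because class II genes share short promoter elements that are bound together and that recruit Ciita. The RefSeq table for build GRCr8 held 13 of the 15 class II genes. The letters CTGATTGG, the class II Y box with its CCAAT core in reverse (searched on both strands in the 250 bases before the start), were found in 7 of the 13 (53.8%), against 1068 of 33469 promoters in the table (3.19%). The letters CTAGCAAC, from the X box, were found in 3 of the 13 (23.1%) against 354 of all (1.06%). The motifs do not overlap. Each sequence below gives the 150 bases before the annotated start, read 5′ to 3′ on the gene's strand, with these letters in capitals.
RT1-Da, chr20:4515265-4515414, plus strand: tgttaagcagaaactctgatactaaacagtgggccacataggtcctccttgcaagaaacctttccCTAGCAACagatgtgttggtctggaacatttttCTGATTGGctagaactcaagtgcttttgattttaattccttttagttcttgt
RT1-Ba, chr20:4576907-4577056, plus strand: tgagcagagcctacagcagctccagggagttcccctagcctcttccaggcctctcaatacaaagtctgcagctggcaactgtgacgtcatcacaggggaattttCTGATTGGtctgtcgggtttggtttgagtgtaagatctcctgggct
RT1-Bb, chr20:4604119-4604268, minus strand: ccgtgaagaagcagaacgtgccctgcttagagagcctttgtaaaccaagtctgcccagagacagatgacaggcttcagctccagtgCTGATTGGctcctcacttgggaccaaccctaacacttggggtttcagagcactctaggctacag
RT1-Db1, chr20:4560163-4560312, minus strand: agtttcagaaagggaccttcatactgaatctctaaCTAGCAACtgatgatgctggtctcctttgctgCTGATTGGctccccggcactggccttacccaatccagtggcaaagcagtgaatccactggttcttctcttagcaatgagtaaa
The first base of the Y box letters lies 52, 46, 64 and 83 bases before the start of RT1-Da, RT1-Ba, RT1-Bb and RT1-Db1, and CTAGCAAC lies 85 and 115 bases before that of RT1-Da and RT1-Db1. A match describes the letters and not a bound site, and RT1-Ba and RT1-Bb hold no exact CTAGCAAC in these windows. The same CTGATTGG was found in 2 of 16 cDC1 genes with a promoter in the table (Cxcl9 and Irf8) and in 0 of 21 cDC2 genes.

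Cells of the cDC1 gate had more RNA of the cDC1 transcription factors and of the immunoproteasome, and cells of the cDC2 gate had more RNA of listed cDC2 genes such as Sirpa and Tmem176b. UMIs were summed per library and gate in the 5 libraries with at least 5 cells in both gates, and edgeR's quasi-likelihood test was run with library as a block. It called 239 of 3965 genes at an adjusted p under 0.05 (6.03%), of which 99 (2.5%) were higher in the cDC1 gate and 140 (3.53%) in the cDC2 gate. Xcr1, Clec9a and Clec10a, which set the gates, were not tested, and genes known to go with them are not independent of the choice.

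Of 22 listed cDC1 genes 9 could be tested, and 8 of these were higher in the cDC1 gate against 2.5% of all genes. Batf3 averaged 207 CPM ± 111 (SD, n = 5) in the cDC1 gate and 7.97 ± 5.88 in the cDC2 gate (log2 fold change 4.25 ± 0.46 SE, adjusted p = 0.00099). It ranged from 55.3 to 316 CPM in the first and from 2.76 to 17.7 CPM in the second, so the gates did not overlap. Irf8 averaged 528 against 48 CPM (3.19 ± 0.41, adjusted p = 0.0018), with ranges of 131 to 824 and 25.5 to 109 CPM. Id2, an inhibitor of the pDC programme, and Wdfy4, which cDC1 need to present captured antigen on class I, were higher by 1.36 and 1.65 on the log2 scale. The lysosomal genes Ppt1 and Naaa were higher by 2.57 and 1.88.

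Genes outside that list rose with them. Slpi, a secreted inhibitor of leukocyte proteases, averaged 1538 against 59.3 CPM (log2 fold change 4.71 ± 0.54, adjusted p = 0.0015), but it ranged from 80.8 to 3370 CPM between libraries in the cDC1 gate. Ctse (cathepsin E), Slamf7, the adhesion receptor Cd226, Rab30, Dock9, Ppm1m and Basp1 made up the other largest rises, at 2.85 to 3.88 on the log2 scale, each higher in 5 of 5 libraries. Cd2, an adhesion molecule better known from T cells, was higher by 2.68. Cytokine genes were mostly not called: of 13 tested, Il18 was higher in the cDC1 gate (552 against 194 CPM) and the monocyte attractant Ccl2 in the cDC2 gate (415 against 86.3 CPM).

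The MHC lists gave unlike counts. Of 12 tested class I presentation genes, 4 were higher in the cDC1 gate and none lower. These were the immunoproteasome subunits Psmb9 (316 against 130 CPM, log2 1.23 ± 0.21) and Psmb8 (517 against 233 CPM, log2 1.09 ± 0.21) and the proteasome activators Psme1 (0.85) and Psme2 (1.03), while B2m, the class I light chain, had a log2 difference of 0.07 ± 0.12. Of 11 class II genes in the fit, only Lgmn, a lysosomal protease, was called, with a log2 fold change of -2.26. RT1-Da averaged 3937 and 2838 CPM (0.36 ± 0.17, adjusted p = 0.27). Cd74, which is among the 11 but belongs to the rule, averaged 7579 CPM in the cDC1 gate and 6828 CPM in the cDC2 gate, as a description.

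On the cDC2 side, 10 of 16 tested cDC2 genes were lower in the cDC1 gate, against 3.53% of all genes. The cDC2 list summed to 17000 CPM in the cDC2 gate and 5500 CPM in the cDC1 gate. It also summed to 30600 CPM in the monocyte gate and 15000 CPM in the C1q macrophage gate, so it is not particular to cDC2. The part of monocyte or macrophage RNA in this count was not tested. Sirpa, the inhibitory receptor used to sort cDC2, averaged 107 CPM ± 17.2 in the cDC2 gate and 11.4 ± 14.7 in the cDC1 gate (log2 fold change -3.14 ± 0.53, adjusted p = 0.0071). The ion channel genes Tmem176a and Tmem176b had log2 fold changes of -3.14 and -5.81. S100a4 and the Fc receptor chain Fcer1g had -2.10 and -2.20. The 10 largest falls also held the mannose receptor Mrc1 (-5.89), Apoe (-5.24), Pla2g7, Selenop, Gpnmb, Adam19, Sdc4 and Pid1, each higher in the cDC2 gate in 5 of 5 libraries. The transcription factor Tcf4 was higher in the cDC2 gate (338 against 93.6 CPM), and so was Zeb2 (1708 against 546 CPM). The growth factor receptor Csf1r averaged 167 against 21.3 CPM and Lyz2 11550 against 3299 CPM.

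Macrophage markers moved with the cDC2 gate. All 3 tested of 12 macrophage genes (Mrc1, Apoe and Hmox1) were higher there, and the list summed to 1620 CPM in the cDC2 gate against 70.2 CPM in the cDC1 gate. Of 7 tested monocyte genes 2 were higher in the cDC2 gate and 0 in the cDC1 gate, and that list summed to 12600 against 4150 CPM. C1qa was found in 12.7% of cDC2-gate and 4.76% of cDC1-gate cells, at 141 and 2.3 CPM, with 28.3% of the cDC2-gate UMIs in 1 cell. The resident macrophage genes Cd163 and Cd5l were at 0 in the cDC1 gate and at 4.91 and 0.701 CPM in the cDC2 gate. With members holding Cd79a or more than 1 UMI of C1qa and C1qb together left out, 2 libraries remained, and Mrc1 (-6.68), Tmem176b (-7.66), Sirpa (-2.90), Batf3 (3.30) and Irf8 (2.29) were still called, while Gpnmb (-2.76, adjusted p = 0.09) and Rab30 (1.63, adjusted p = 0.13) were not. Leaving out TO 2d 0h, TO 2d 4h or TO 4d 4h lowered the 239 calls to 105, 103 and 141, and Zeb2 was called in 1 and Lyz2 and Csf1r in 3 of the 5 fits that leave a library out.

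**Figure D4:**
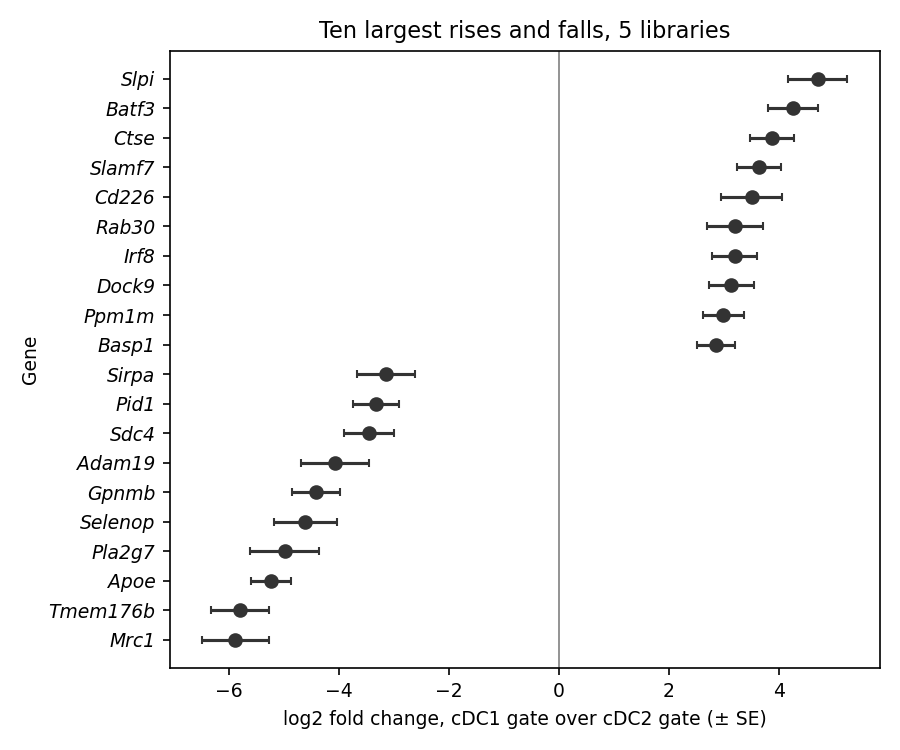
Log2 fold change of the cDC1 gate over the cDC2 gate (x axis) for the 10 called genes with the largest rise and the 10 with the largest fall (y axis), as points with the standard error as bars, from summed UMIs of 5 libraries. Slpi and Batf3 lead the rises at 4.71 and 4.25, and Mrc1 and Tmem176b lead the falls at -5.89 and -5.81.

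Part of the cDC carried cell cycle RNA. Mki67, a marker of dividing cells, and Top2a, the replication topoisomerase, together reached 5 or more UMIs in 50 of the 236 cDC (21.2%), and 105 cells had none. The 24 cells with the most cell cycle RNA held 56.8% of the UMIs of the 34 listed cell cycle genes. The share with 5 or more UMIs was 35.7% in the cDC1 gate (15 cells), 18.8% in the cDC2 gate (31 cells) and 13.8% in cells with both marker sets (4 cells). This cut is not scaled for depth, and the median cell of these groups had 19823.5, 15174 and 16633 UMIs. The 10 cDC1-gate cells with no Clec9a UMI had 380 CPM of Mki67 (in 8 cells), 24.3 CPM of Batf3 and 372 CPM of RT1-Da, against 172, 267 and 5250 CPM in the 32 with Clec9a. In the test of the gates 0 of 16 cell cycle genes were called, where 6.03% of all 3965 genes were, and 16 genes are too few to differ from that share. Mki67 averaged 256 and 238 CPM in the cDC1 and cDC2 gates. Over the libraries Mki67 ranged from 73.1 CPM at TOE 2d 24h to 323 CPM at TO 4d 4h.

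Compared with the pDC gate, the cDC had more RNA of cDC2 genes, chemokines and pattern receptors, and less of the pDC transcription factors. The pDC gate (391 cells) took cells with Flt3, at least 2 UMIs of Siglech and none of the 3 cDC markers. In the 7 libraries with at least 10 cells of both kinds (TOE 4d 24h, with 7 cDC, was left out), edgeR called 3268 of 7005 genes (46.7%), of which 1669 (23.8%) were higher in the cDC and 1599 (22.8%) lower. Gate genes and class II genes were not tested here or in the next contrasts, and genes that go with them are not independent of how the gates were drawn. With so many genes called, the count of a list is read against these shares. Of 22 cDC2 genes 17 were higher and 1 lower, of 14 cytokine and chemokine genes 12 were higher and none lower, and of 14 pattern recognition genes 11 were higher and none lower. Of 8 tested genes of the pDC list 6 were lower and none higher. Markers of other myeloid cells were also higher in the cDC, namely 7 of 8 monocyte genes, 5 of 5 macrophage genes and 4 of 8 neutrophil genes, and their part in the other lists was not tested.

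Of 10 tested genes of the shared cDC list 5 were higher in the cDC and 4 lower, and of 10 cDC1 genes 5 were higher and 3 lower. Zbtb46 averaged 40.5 CPM in the cDC and 5.55 CPM in the pDC gate (log2 2.99 ± 0.33, adjusted p = 1.6e-06), and Cst3 averaged 2680 against 482 CPM (2.50 ± 0.17). Id2 was higher by 2.49. Tcf4, the factor that sets the pDC fate, averaged 255 against 2946 CPM (-3.38 ± 0.12, adjusted p = 6.1e-11), and the pDC factors Spib (-3.43), Bcl11a (-2.99) and Runx2 (-2.76) were also lower. Irf8 averaged 210 against 1070 CPM (-2.34 ± 0.25). The largest rises in the cDC were Cd226 (56.4 against 0.661 CPM), Naaa, the lectins Clec4a3 (5.34) and Clec4a1, Pla2g7, Tmem176b, the neutrophil attractant Cxcl1 (275 against 8.26 CPM), Tgfbi, Ggt5 and Ly49si2. The largest falls were Plpp3 (-8.18), the chemokine Xcl1 (0.426 against 105 CPM), Ephb2, Sla2, Ccdc162, Fgfr2, the pre-T cell receptor chain Ptcra, Fam131c, Nap1l5 and Cd3g. Xcl1 is the ligand of Xcr1, the receptor that the rule used on the cDC side.

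Compared with the monocyte gate, the cDC had more RNA of most tested genes of the shared cDC and cDC1 lists, and less of most listed cytokines and chemokines. The monocyte gate (5714 cells) took cells with Csf1r and Vcan but no Flt3, Siglech, C1qa or C1qb UMI. In the same 7 libraries edgeR called 2722 of 10916 genes (24.9%), 1303 (11.9%) higher in the cDC and 1419 (13%) lower. Of 9 tested genes of the shared cDC list 8 were higher and none lower, and of 15 cDC1 genes 11 were higher and 2 lower. Of 24 cDC2 genes 9 were higher and 10 lower, of 28 dendritic cell transcription factors 11 were higher and 7 lower, and of 18 maturation and migration genes 8 were higher and 4 lower. Batf3 averaged 67.6 against 1.28 CPM (log2 5.50 ± 0.40, adjusted p = 3.4e-08) and Zbtb46 40.5 against 2 CPM (4.25 ± 0.31). Cd83 averaged 377 against 70.6 CPM (2.44 ± 0.12, adjusted p = 3.1e-10), and Cd86, which engages CD28 on T cells, 135 against 29.2 CPM (2.14).

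Of 23 tested cytokine and chemokine genes 14 were lower and 3 higher in the cDC than in the monocyte gate. Ccl3 averaged 404 against 1306 CPM, Ccl2 281 against 856 CPM and Cxcl2 465 against 1093 CPM, whereas Il18 (255 against 62.1 CPM) and Cxcl16 (84.2 against 20.8 CPM) were higher in the cDC. Of 26 immediate-early genes 5 were higher and 4 lower, with the nuclear receptors Nr4a3 (2.41) and Nr4a2 (1.77) among the higher. The largest rises were Cd226 (7.91), Elovl7 (7.11), the hyaluronan receptor Lyve1, which resident macrophages can also express (57.6 against 1.16 CPM), Batf3, Slamf7, Tbc1d4 (5.20), St8sia1, Slco3a1 and Gpr171. C1qc was among them too (4.85), in a contrast whose monocyte gate barred its partners C1qa and C1qb. The largest falls were Rnase2 (-4.24), Prg2, the matrix protein fibronectin Fn1 (126 against 1503 CPM, -3.81), Met, Lbp, Mal, G0s2, Mcpt10, Ibsp and Sema3c, and of these Mcpt10 was lower in only 5 of the 7 libraries. All 9 tested erythroid genes and 7 of 8 mesenchymal genes were lower in the cDC, and Lyz2 was lower by a log2 change of -1.70. Of 6 tested macrophage genes 3 were higher and 1 lower (median log2 1.57), and of 8 pDC genes 4 were higher and 1 lower, and their part in the other lists was not tested.

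Compared with the C1q macrophage gate, the cDC had more RNA of cell cycle genes and of most tested genes of the shared cDC list. They had less of most tested macrophage, vesicle and cDC2 genes. The macrophage gate (966 cells) took cells with at least 5 UMIs of C1qa and C1qb and no Flt3 or Siglech UMI. In 7 libraries edgeR called 2985 of 7529 genes (39.6%), 1430 (19%) higher in the cDC and 1555 (20.7%) lower. Of 31 cell cycle genes 18 were higher and none lower, with Cenpf at 1.73 and Prc1 at 1.34 on the log2 scale. Against the monocyte gate, 1 of 34 cell cycle genes was higher in the cDC and 7 were lower. Of 8 tested genes of the shared cDC list 6 were higher than in the macrophage gate and none lower. Of 13 cDC1 genes 6 were higher and 2 lower, and of 26 dendritic cell transcription factors 13 were higher and 2 lower. Of 21 cDC2 genes 14 were lower and 4 higher, and all 6 tested erythroid genes were lower. All 10 tested macrophage genes were lower, among them Cd5l (0.522 against 148 CPM, -7.78), the haemoglobin scavenger Cd163 (4.95 against 293 CPM), Vcam1 and Hmox1. The median macrophage-gate cell was shallower, at 2186 to 10825 UMIs over the libraries.

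The largest rises over the macrophage gate were Elovl7 (7.68), Cd226 (6.38), the T cell adaptor Grap2 (264 against 9.45 CPM), Slco3a1, Klrb1b, Ggt5, Batf3 (3.92), Cd2, Ctse and the peptidase Dpp4. The largest falls were Fstl3, with no UMI in the cDC of any of the 7 libraries against 69.6 CPM, Cd5l, Slc10a6, Adgrl3, Cd163, Vcam1, Rarres1, Stab1, Gcgr and C1qc. C1qc follows the genes of that gate. Of 7 vesicle markers that the study tracked, 5 were lower, with Cd63 at 416 against 1873 CPM, Cd9 at -2.20 and Cd81 at -1.91 on the log2 scale, and Rab27a was higher (1.20). Of 16 class I presentation genes 4 were higher and 5 lower, with the immunoproteasome genes Psmb9 (1.10) and Psmb8 (0.83) among the higher and B2m (-0.73) among the lower.

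No gene was called between TOE and TO in the cDC across the 3 matched pairs. With the pair as a block edgeR called 0 of 6059 genes (0%), with 220 at an unadjusted p under 0.05, and DESeq2 also called 0, with 119. The fit had 2 residual degrees of freedom. Leaving out a pair gave 3 to 6 called genes, and with no filter on low counts there were 26. Median log2 differences of lists were 0.65 for 21 cDC2 genes, 0.49 for 11 class II genes, -0.72 for 12 cDC1 genes, -0.40 for 23 immediate-early genes and -0.47 for 24 cell cycle genes, against -0.01 over all genes tested. Markers of other cells moved further, with medians of 1.89 for 6 macrophage genes, 0.94 for 10 neutrophil genes, 0.76 for 8 monocyte genes and -1.62 for 4 erythroid genes, and their part in the other lists was not tested. The pairs differed in direction, as follows, and with 1 library per arm these values carry no test and no replicate check.

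**Figure D5:**
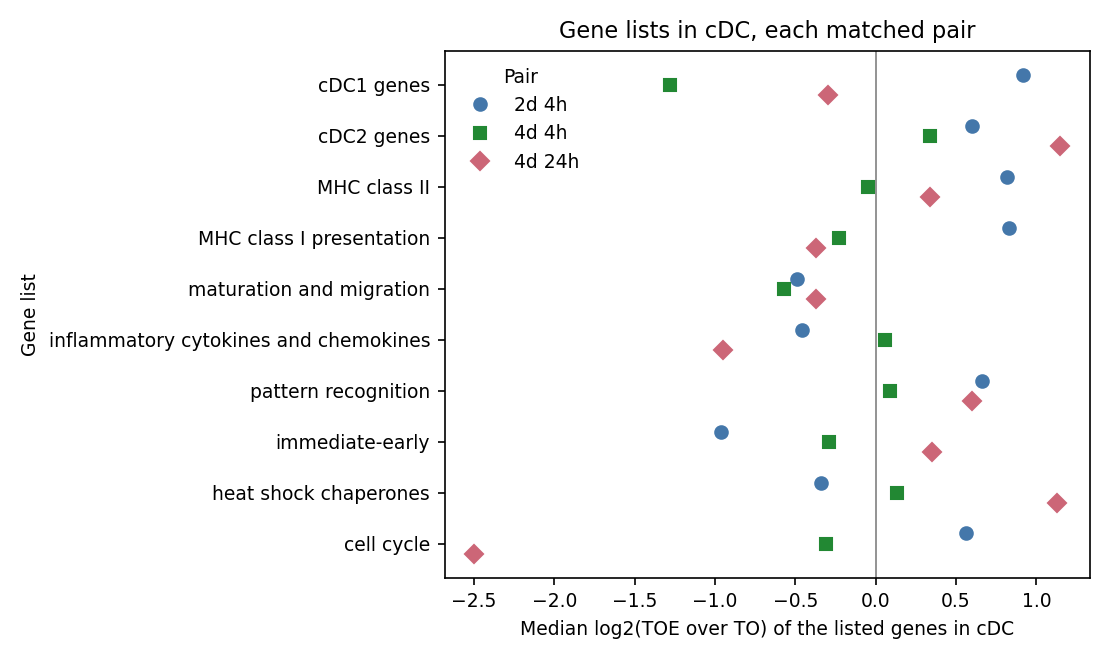
Median log2 ratio of TOE over TO (x axis) of the genes of 10 lists (y axis) in the cDC, with a separate marker for each matched pair. The cDC1 genes lie at 0.92 in the 2d 4h pair and -1.28 in the 4d 4h pair, and the cell cycle genes lie at -2.5 in the 4d 24h pair, which rests on 11 and 7 cells.

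At 2d 4h the TOE cDC had less RNA of many immediate-early genes and more of several cDC1 genes than the TO cDC. The cells of the pair also differed in make-up. In TOE 9 of 30 cDC held both marker sets, at a median of 4470 UMIs, against 1 of 32 in TO. The median mitochondrial share of the cDC was 1.93% in TOE and 3.41% in TO. The part of these differences in the values of this pair was not tested. Genes with at least 20 UMIs over the pair were counted when at least 2-fold apart, which held for 10.4% upward and 6.89% downward of 5993 genes. Of 23 immediate-early genes 11 were at least 2-fold lower and 0 higher. Atf3, a stress-induced transcription factor, stood at 357 CPM in TO (24 of 32 cells) and 57.8 CPM in TOE (6 of 30 cells), a ratio of 0.162 (exact conditional 95% interval 0.1 to 0.251). In the same pair Fosb stood at 1070 and 360 CPM, Nr4a2 at 266 and 83 CPM and Dusp1 at 218 and 83 CPM. At this time 0 of 23 immediate-early genes were 2-fold lower in the pDC gate, 0 of 26 in the monocyte gate and 2 of 25 in the C1q macrophage gate, where 240 of 7269, 511 of 13442 and 460 of 8088 of all genes were. Over all kept cells the summed level of the immediate-early genes was also lower in TOE at 2d 4h, at 5940 and 3890 CPM, and the difference between gates was not tested. Atf3 there stood at 89.6 and 107 CPM in the pDC gate and at 116 and 84.9 CPM in the monocyte gate.

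Other large falls at 2d 4h were the granule gene Ngp, with 84.8% of its UMIs in 1 cell, Cxcl1 (495 and 40.2 CPM) and Arl5b (270 and 45.3 CPM). The largest rises rested on single cells. C1qb, RatNP-3b, Defa5, Np4 and Apoe had 98%, 93.7%, 93.1%, 92% and 83.7% of their UMIs in 1 cell, the defensin genes being close copies whose UMIs are hard to assign, and all 8 macrophage genes measured in this pair were at least 2-fold higher in TOE. Of 12 cDC1 genes 6 were at least 2-fold higher in TOE and none lower, with Irf8 at 110 and 395 CPM. Slpi, outside that list, stood at 681 and 3840 CPM. Of 12 class II genes 2 were at least 2-fold higher and none lower, a share near that of all genes. Their median log2 ratio was 0.82, though, against 0.09 over all genes and 0.92 for the cDC1 genes. The class II sum, Cd74 included, stood at 14300 CPM in TO and 24500 CPM in TOE, as a description. In the same pair the share of cDC with Xcr1 or Clec9a was 34.4% in TO and 50% in TOE, and its part in these values was not tested.

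At 4d 4h the cDC1 genes stood the other way. There 3.42% of 8067 genes were at least 2-fold higher in TOE and 5.94% lower, and of 15 cDC1 genes 8 were lower and none higher. Batf3 stood at 109 CPM in TO and 15.4 CPM in TOE, Irf8 at 323 and 51.8 CPM and Cadm1 at 216 and 26.5 CPM. Slpi, outside that list, stood at 2250 and 128 CPM (ratio 0.0569, 0.0468 to 0.0686). The share of cDC with Xcr1 or Clec9a was 38.3% in TO and 18.4% in TOE. Within the cDC1 gate alone (9 and 6 cells) 3 of these genes were also lower, with Batf3 at 209 and 55.3 CPM, Irf8 at 662 and 131 CPM and Slpi at 3370 and 616 CPM. Of the 6 TOE cells, 3 had entered on a single Xcr1 UMI and held no UMI of Clec9a, Batf3 or Irf8. Gcsam had 58 UMIs in 12 TO cells and 0 in TOE, and Klrc3 stood at 63.9 and 3.31 CPM. Ctsg and G0s2 were the other large falls, Ctsg with 92.1% of its UMIs in 1 cell. Of 24 immediate-early genes 1 was at least 2-fold lower and none higher. Of the marker lists of other cells, 5 of 7 macrophage genes were at least 2-fold higher in TOE, while 6 of 6 erythroid and 5 of 6 mesenchymal genes were lower, and their part in these values was not tested.

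RT1-Bb was the largest rise at 4d 4h that was spread over many cells. It stood at 71.9 CPM in TO (21 of 47 cells) and 563 CPM in TOE (36 of 49 cells), a ratio of 7.84 (6.03 to 10.4), with 9.23% of the UMIs in the highest cell. In the cDC2 gate it stood at 31 and 695 CPM and in the cDC1 gate at 102 and 152 CPM. In the same libraries it stood at 7.7 and 88.1 CPM in the C1q macrophage gate, 3.32 and 17.4 CPM in the monocyte gate and 18.6 and 18.2 CPM in the pDC gate. Its partner RT1-Ba stood at 2050 and 1980 CPM in the cDC, and of 13 class II genes 1 was at least 2-fold higher and 1 lower. The other large rises were Fbxo17, with every UMI in 1 cell, Lcn2 (76.9% in 1 cell), C1qa and Hp.

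At 4d 24h the pair held 11 TO and 7 TOE cells. Of 3006 genes 13.4% were at least 2-fold higher in TOE and 20.3% lower. Of 15 cell cycle genes 14 were lower, with Top2a at 287 and 38.8 CPM and Stmn1 at 411 and 68 CPM. In TO 1 cell, with 7 Cd74 UMIs, held 611 cell cycle UMIs, and the other 10 cells held 8 to 64 each. The same cell held 78688 of the 250551 UMIs of the 11 TO cells, so it weighs on every TO value of this pair. Of 20 immediate-early genes 9 were higher and 3 lower, with a median log2 ratio of 0.35. Of 14 heat shock chaperones 8 were higher and none lower. Hsph1, a co-chaperone of Hsp70, stood at 160 CPM in TO (8 cells) and 4850 CPM in TOE (6 cells), and Hspa1a at 806 and 5930 CPM. Hsph1 also stood at 474 and 2820 CPM in the monocyte gate and 499 and 1940 CPM in the pDC gate. Over all kept cells the sum of the heat shock list was lower in TOE, at 9950 and 7300 CPM, and the difference between gates was not tested. Plxdc1, Rps6ka5 and Ddhd1 were other large rises, and Rps6ka5 had 86.5% of its UMIs in 1 cell. Ctsg, Mpo and Mcpt8, the granule genes among the falls, had 97.1%, 97.7% and 95.4% of their UMIs in 1 cell, and Tbc1d4 and Fabp5 completed the falls. In this pair 6 of 6 neutrophil and 3 of 5 monocyte genes were at least 2-fold higher in TOE and 3 of 3 erythroid genes lower, and their part in these values was not tested.

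No gene was called between day 4 and day 2 either. With arm and hour as additive terms over the 8 libraries, edgeR called 0 of 6485 genes (0%), with 114 at an unadjusted p under 0.05, and DESeq2 called 0, with 66. The 4 h libraries alone, with arm as a block, gave 8 called genes. In TOE the day 4 libraries also followed a further shock wave session, which these fits do not separate from the day. The median log2 difference was 0.72 for 14 heat shock chaperones, -0.53 for 13 cDC1 genes and 0.38 for 24 cell cycle genes, against -0.00037 over all genes tested. Markers of other cells had medians of 0.85 for 4 erythroid, 0.37 for 5 mesenchymal and 0.36 for 7 monocyte genes. Those of 10 neutrophil and 6 macrophage genes were -0.22 and -0.13, and their part in the other lists was not tested. Hsp90aa1 stood at 735 CPM at TO 2d 0h, 1420 and 1700 CPM at 2d 4h in TO and TOE, 608 CPM at TOE 2d 24h, 1670 and 2040 CPM at 4d 4h and 906 and 2010 CPM at 4d 24h, so values of the days overlapped.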

How the data were processed

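Rat tibial osteotomy tissue was profiled by droplet single-cell RNA sequencing (10x Genomics). The deposited matrices hold raw UMI counts per gene and barcode. Per the labels, the authors used Cell Ranger 9.0.0, Seurat and R 4.0.3 and named the builds GRCh38 and mRatBN7.2, without saying what each was used for. The library of untreated tissue at 2d 24h was not analysed here. The series text gives as many rats as samples, but no label ties a library to a single rat.

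The members and the gene lists were chosen with earlier results of these data known. Cells under 200 genes or over 20% mitochondrial UMIs were dropped. A doublet score came from Scrublet in scanpy 1.11.5, and cells over 0.25 stayed in, except in an alternative. Counts were summed per library and gate and tested with edgeR 4.0.16 (filterByExpr, TMM factors, quasi-likelihood test, Benjamini-Hochberg adjustment, adjusted p under 0.05), in R 4.3.3. DESeq2 1.42.0 was an alternative. The cDC1 and cDC2 gates were to be tested in libraries with at least 10 cells of both, which only 1 library had, so a minimum of 5 cells was set after the cells were counted. Gate contrasts had library as a block. In gate contrasts p-values measure how far the difference between gates varied across libraries that differ in treatment and time. For TOE against TO they measure how far the difference varied across the matched pairs. For day 4 against day 2 they measure the spread left between libraries after arm and hour. None measures the spread between animals of the same condition. Ratios of shares have exact conditional intervals (scipy 1.17.1), shares exact Clopper-Pearson intervals, and neither covers differences between animals. Fits were also run on simulated data with known changes. Those data had no differences between libraries other than depth and the set changes, and no outlying cells. Such runs cannot show how the fits behave where libraries or single cells stand apart.

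Genes were named by rule: the gate genes, the 10 largest called rises and falls of a contrast with at least 50 CPM in the higher group, up to 4 called and 4 most abundant genes of a list, and the 5 largest rises and falls of a pair with at least 50 UMIs. Unnamed loci were counted but not named. A few genes that met the rule are not reported here. Other genes given, such as further class II and cell cycle genes, were chosen after their values were seen. Promoter sequences come from RefSeq (GRCr8), which is not the build of the counts.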

Additional observations from a re-analysis of the deposited data

Results flagged for a closer look

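The cDC1 genes had a median log2 ratio of TOE over TO of 0.92 in the 2d 4h pair and of -1.28 in the 4d 4h pair of cDC libraries, so the pairs differed in direction. In the same pairs the share of cDC with a Xcr1 or Clec9a UMI was 34.4% in TO and 50% in TOE at 2d 4h, and 38.3% and 18.4% at 4d 4h, and the part of this in the ratios was not tested. The cell cycle genes had a median of 0.56 in the 2d 4h pair and -2.5 in the 4d 24h pair, the latter from 11 and 7 cells. In TO 4d 24h 1 cell held 611 cell cycle UMIs, and the other 10 held 8 to 64 each. Each pair is 1 library per arm, and the differences between pairs were not tested. No group held enough libraries to look for a library apart from the others of its group.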

How the results depend on the processing

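Of 83 counts of called genes under other settings 71 stayed within 1.5 times the reported count, and of 62 share ratios 58 stayed within their interval. For the cDC1 against the cDC2 gate the 239 calls became 665 with no filter on low counts, and 103 to 329 when a library was left out (105 without TO 2d 0h, 103 without TO 2d 4h and 141 without TO 4d 4h). DESeq2 called 242 genes there, 189 of them shared. For TOE against TO the 0 calls became 26 with no filter and 3 to 6 when a pair was left out. For day 4 against day 2 they became 18 with no filter, 8 in the 4 h libraries alone, and 0 to 1 when a library was left out. The cause was not tested. With cells thinned to 3000 UMIs, which left out 26334 shallower cells, the share ratios became 3.05 (TOE over TO, 2d 4h), 2.21 (TOE over TO, 4d 24h), 0.666 (TOE, 2d 24h over 2d 4h) and 4.44 (TO, 4d 4h over 2d 4h), and the cDC1 share at 4d 24h gave no value. Over the 10 largest rises and 10 largest falls of each gate contrast, 1127 of 1129 values kept their direction and call. Rab30 (1.63) and Gpnmb (-2.76) lost theirs when members with Cd79a or more than 1 UMI of C1qa and C1qb were left out. These genes were picked for their large called changes in the same data, so their tally does not describe the calls as a whole. Of the 105, 103 and 141 calls without TO 2d 0h, TO 2d 4h and TO 4d 4h, 100, 93 and 121 were among the 239. A gene that an alternative fit did not test, or left without an adjusted p, adds no value to the 1129. Genes named from the lists were not in that count, and among them Zeb2 was called in 1 and Lyz2 and Csf1r in 3 of the 5 fits of the cDC1 and cDC2 gates that leave a library out. The setting without these members left 2 libraries for the cDC1 and cDC2 gates, with 184 calls, 95 of them shared. The labels give no replicate numbers that groups share, and the reported TOE against TO test has the matched pair as its block. Depth limits what 7 and 11 cells can show at 4d 24h.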

Other observations

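Of 29 listed maturation and migration genes, which summed to 1540 CPM in the cDC, 955 CPM in the monocyte gate, 1220 CPM in the pDC gate, 1770 CPM in the C1q macrophage gate and 1450 CPM over all kept cells, 4 were chosen after their values were seen. Ccr7, the receptor that leads dendritic cells to lymph nodes, stood at 4.07 CPM in the cDC, 0.391 CPM in the monocyte gate and 4.86 CPM in the pDC gate. Fscn1, an actin bundler of mature dendritic cells, stood at 2.15, 4.27 and 9.31 CPM in the same order and the chemokine Ccl22 at 1.91, 0.413 and 0.202 CPM. Il12b, a subunit of interleukin 12, stood at 6.7 CPM in the cDC, in 4 cells, and at 0.112 CPM in the monocyte gate. The 31 interferon-stimulated genes summed to 605 CPM in the cDC, from 349 CPM at TO 2d 4h to 1480 CPM at TO 4d 24h, against 714 CPM in the pDC gate. The 9 measured of 10 listed T and NK cell genes summed to 287 CPM in the cDC1 gate and 79.5 CPM in the cDC2 gate. Each sum pools cells of all libraries and carries no test.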
